A study of Mus musculus with 10 samples.

Results

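The beating cilium is built on an axoneme, a ring of microtubule doublets around a central pair. The genes described here carry symbols named for its parts or for cilia. They were taken by symbol from the protein-coding genes of the deposited quantification: the axonemal dynein heavy chains (Dnah), dynein intermediate chains (Dnai), cilia and flagella associated proteins (Cfap), radial spoke proteins (Rsph) and dynein regulatory complex subunits (Drc). The rule found 65 genes of 54309 in all and of 21669 with a protein-coding transcript: 35 Cfap, 15 Dnah, 8 Rsph, 4 Dnai and 3 Drc genes. Of the 65, 12 were assigned no part of the axoneme here and 2 are dynein arm assembly factors. All 65 are called axonemal genes below for their symbols. 1 further gene with a matching symbol, Dnah2os, was not protein-coding and was left out. The family was selected on the measured log2 fold change (log2FC) of Dnah6 after axotomy, so the response of Dnah6 is given below as a description with no test, and every count of responding genes leaves Dnah6 out.

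The libraries came from C57BL/6 mice aged 6 to 8 weeks, in which the left sciatic nerve was cut (axotomy) or only exposed (sham). Ipsilateral L4 and L5 dorsal root ganglia (DRG), which hold the cell bodies of sensory neurons with their satellite glia and Schwann cells, were collected 24 h after surgery, and the ganglia of 2 mice were pooled per library. Each sex had 2 sham and 3 axotomy libraries, 10 in all, with no genetic change in any group. Whether a gene responded to axotomy was asked in each sex, and whether the response differed between the sexes was tested directly.

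In a motile cilium, outer and inner dynein arms slide neighbouring doublets along each other, and radial spokes, the nexin-dynein regulatory complex and the central apparatus control when they do so. Cells with motile cilia, such as the multiciliated cells of airways, oviduct and brain ventricles, switch these genes on together through the transcription factor Foxj1 and the RFX factors. Sensory neurons and glia of the DRG are known for a primary cilium, which has no dynein arms and signals instead of beating, and several Cfap genes also serve such cilia or other microtubules.

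Total estimated counts were 55258476 to 90111671 per library, and the 65 genes together took 0.0359% to 0.0426% of them. Markers fixed for sensory neurons dominated every library, at 10979 to 16805 CPM (counts scaled to the total of the library) summed over 12 genes. Of 13 markers of multiciliated and ependymal cells, 5 (Tmem212, Ccdc153, Sntn, Fam216b and 1700012B09Rik) never exceeded 6 counts in a library, the highest count of Ccdc153. Others were present, with Rarres2 at 22.13 to 63.65 CPM, Foxj1 at 5.87 to 19.75 CPM and Hydin at 0.421 to 1.205 CPM. Tekt1, Cdhr4, Dynlrb2 and Mia stood at no more than 0.611 CPM. The summed level of the list, 1255 to 1436 CPM, was mostly Tppp3, at 1210 to 1391 CPM. Whether the ganglia hold such cells was not tested. Markers are counted here as falling or rising when called at an adjusted p under 0.1 by the edgeR test described below. In females 9.74% of all genes tested fell and 10.4% rose, and in males 20.1% fell and 21.8% rose. Of the 8 genes of the multiciliated and ependymal list that were tested, 1 fell in females, and 1 fell and 1 rose in males. The sensory neuron markers fell with axotomy in both sexes, 6 of 12 in females (from 14931 to 15966 CPM in shams to 13085 to 13387 CPM) and 9 of 12 in males (from 16121 to 16805 CPM to 10979 to 13573 CPM), alongside the genes below that fell in both sexes. In males all 7 markers of myelinating Schwann cells, 8 of 10 of fibroblasts and meninges, all 8 of macrophages, all 5 of erythrocytes and 4 of 6 of satellite glia rose, and 4 of 6 endothelial markers fell. Male axotomy replicates 1 and 3 held the most erythrocyte marker counts, 3165 and 5679 CPM against 1501 CPM in replicate 2 and 769 to 845 CPM in the male shams. In females 1 of 8 macrophage markers rose, none of the Schwann cell or erythrocyte markers passed the test, 2 of 10 fibroblast and meningeal markers fell, and of 6 satellite glia markers 2 fell and 1 rose. The part of these moves in the results was not tested, beyond a fit without male axotomy replicates 1 and 3. In bulk tissue, fewer cells of a type and less RNA per cell cannot be told apart.

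Most of the axonemal genes were at very low levels in the ganglia. Levels between genes are compared here in TPM, which scales counts by transcript length as well as by library. The median of the 65 genes was 0.518 TPM. The 54 that passed the low-count filter had a median of 1.10 TPM, against 7.48 TPM for all 20836 genes tested. Only 10 genes averaged 10 TPM or more over the 10 libraries, 28 averaged 1 TPM or more, 37 averaged less and 15 averaged less than 0.1 TPM. Cfap97d1 had no count in any library, where 3 counts would be 0.0333 to 0.0543 CPM. The 11 genes under the filter were Cfap43, Cfap73, Cfap77, Cfap97d1, Cfap97d2, Cfap157, Cfap161, Cfap221, Drc7, Rsph6a and Rsph14, none above 10 counts in a library.

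The highest was Cfap36, an Arl3-binding protein, at 94.5 TPM with a range of 84.3 to 104.5 TPM, and it alone held 20.6% of the counts of the 65 genes. Cfap20, which sits at the junction between the tubules of a doublet, followed at 37.0 TPM. Rsph3a, Cfap100 and Rsph3b averaged 29.8, 29.8 and 29.5 TPM, and their ranges over libraries overlapped. Next came Cfap410, a basal body protein, at 26.5 TPM, Cfap97 at 19.1 TPM, the dynein arm assembly factors Cfap300 and Cfap298 at 16.7 and 14.3 TPM, and the spoke head protein Rsph9 at 11.6 TPM. The parts that move the axoneme were far lower. All 15 dynein heavy chain genes passed the filter, yet the highest, Dnah7a, averaged 4.18 TPM, and 85.8% of its counts lay on a processed transcript of 732 bases rather than on the coding transcript of 12245 bases. The 5 outer arm heavy chains ran from 0.0266 TPM for Dnah5 to 0.518 TPM for Dnah9, and the 9 inner arm heavy chains from 0.0170 TPM for Dnah12 to Dnah7a. Reads of the near-identical copies Dnah7a, Dnah7b and Dnah7c, and of Rsph3a and Rsph3b, may be split between them, so their single values are uncertain.

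**Figure D1:**
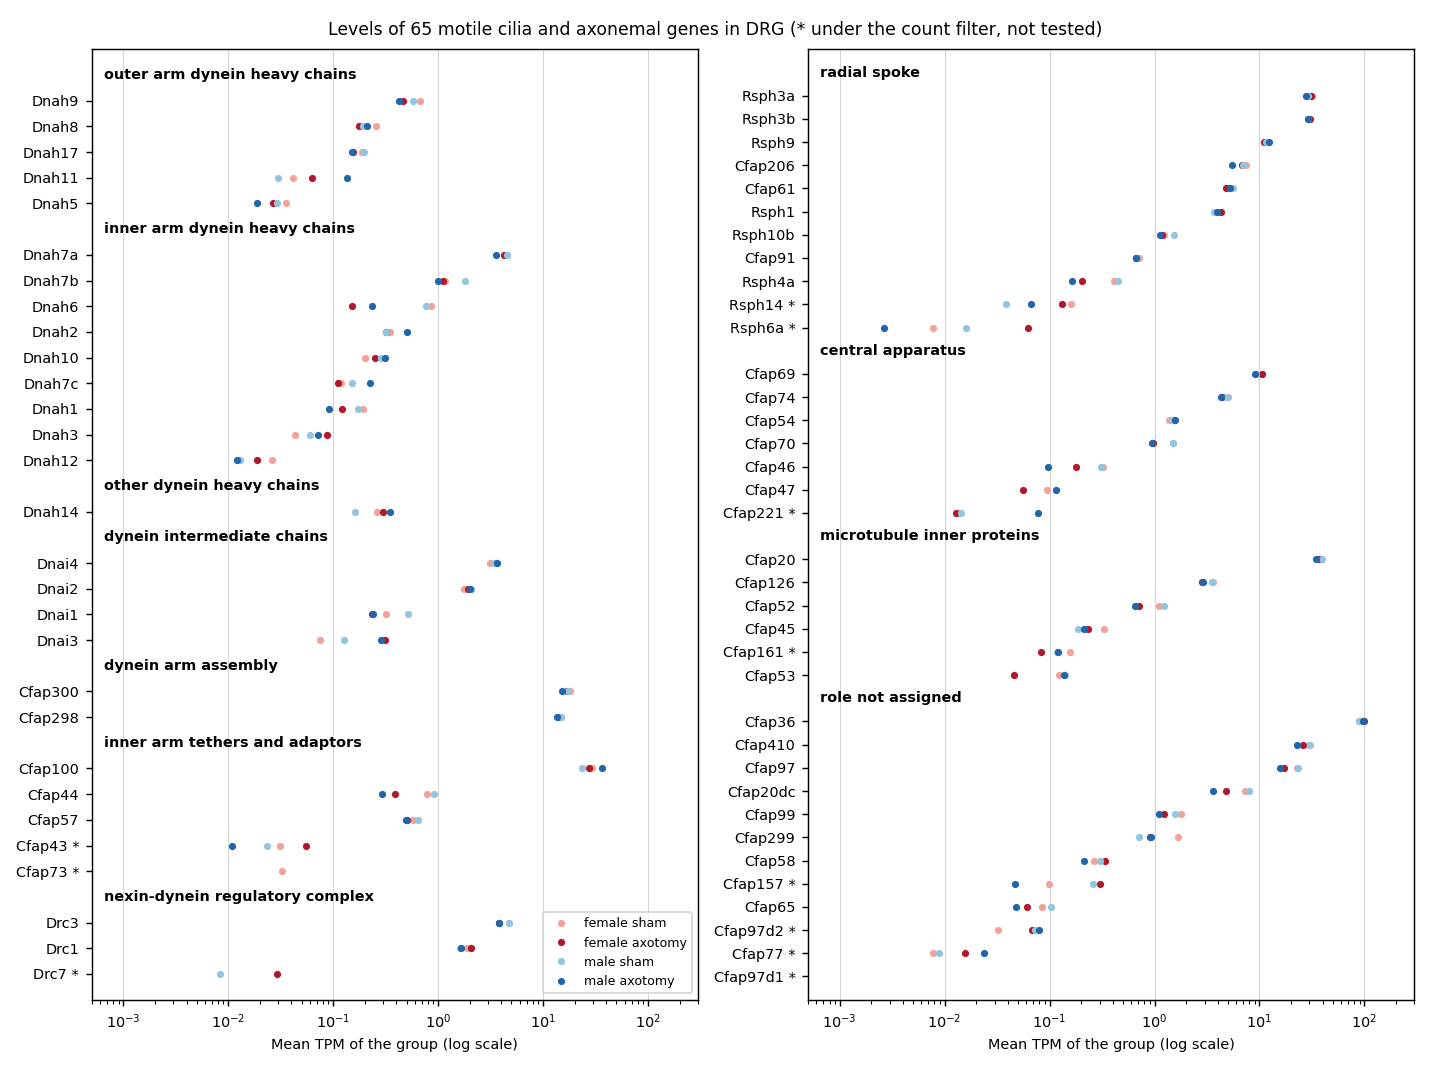
Mean TPM (log scale) of each of the 65 genes in the 4 groups, ordered by part of the axoneme, with genes under the count filter starred; a group with a mean of 0 has no dot. The 4 dots of most genes sit close together, those of Dnah6 are split into high shams and low axotomies, and heavy chains lie below 5 TPM while Cfap36 lies near 94.5 TPM.

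Dnah6, an inner arm dynein heavy chain, fell in every axotomy library. In females it stood at 4.98 and 5.41 CPM in the shams and at 1.11, 1.27 and 1.51 CPM after axotomy. In males it stood at 4.28 and 4.96 CPM in the shams and at 2.05, 1.73 and 2.07 CPM after axotomy. The groups did not overlap in either sex, and the 3 male axotomy libraries lay above the 3 female ones. The log2FC from the fit described below was −2.39 (SE 0.18) in females and −1.52 (SE 0.17) in males, a 5.23-fold and a 2.86-fold fall. Ordered by log2FC from the most negative, Dnah6 was number 13 of 20836 genes in females and number 158 in males. Male axotomy libraries exceeded female ones by 0.71 (SE 0.17) on the log2 scale, while male shams differed from female shams by −0.16 (SE 0.19).

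Both transcripts of Dnah6 that drew reads fell. The coding transcript Dnah6-203, of 12513 bases, carried 89.4% of the counts. It had 282 and 310 counts in female shams and 69, 70 and 94 after axotomy, and 260 and 271 counts in male shams and 124, 145 and 123 after axotomy. The retained-intron transcript Dnah6-202, of 4387 bases, was given 37.6 to 59.2 counts in each of the 4 sham libraries, 0 counts in the 3 female axotomy libraries and 15.2, 11.5 and 0 counts in the 3 male ones. As the shorter transcript lost more, the fit corrected for transcript length gave a larger fall than counts alone, which gave −2.01 in females and −1.29 in males.

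The bases before the start of Dnah6 were set beside those of Cfap20dc, which also fell in both sexes, and of Dnai3, which rose in both, to show which of the letters bound by RFX factors they hold. The sequences are from RefSeq on GRCm38.p6, 250 bases ending at the start of transcription: chr6:73221632-73221881, minus strand for Dnah6, chr14:8666291-8666540, minus strand for Cfap20dc and chr3:146108037-146108286, minus strand, for Dnai3. Capitals mark an RFX pair, GTTNC followed after 2 to 5 bases by GNAAC, which reads the same on both strands.
Dnah6 promoter: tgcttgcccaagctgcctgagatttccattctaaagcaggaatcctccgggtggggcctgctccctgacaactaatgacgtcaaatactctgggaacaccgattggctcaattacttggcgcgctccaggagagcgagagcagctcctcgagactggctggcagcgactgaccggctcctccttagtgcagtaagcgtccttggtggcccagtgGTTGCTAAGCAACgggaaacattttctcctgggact
Cfap20dc promoter: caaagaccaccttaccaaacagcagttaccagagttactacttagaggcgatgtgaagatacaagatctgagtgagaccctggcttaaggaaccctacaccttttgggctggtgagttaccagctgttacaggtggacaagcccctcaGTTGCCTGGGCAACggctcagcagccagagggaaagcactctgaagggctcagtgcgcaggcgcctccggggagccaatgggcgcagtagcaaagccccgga
Dnai3 promoter: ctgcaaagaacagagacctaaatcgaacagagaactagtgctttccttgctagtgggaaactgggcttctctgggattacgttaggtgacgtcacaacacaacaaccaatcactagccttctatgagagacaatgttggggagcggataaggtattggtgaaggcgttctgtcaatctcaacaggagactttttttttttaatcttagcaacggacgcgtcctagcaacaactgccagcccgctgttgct
Rsph4a had no entry. Such a pair stood close to the start in Dnah6, further upstream in Cfap20dc and nowhere in the Dnai3 window. The members that hold it include genes that were not called, such as Cfap298. These letters were set with the Dnah6 sequence in view. Of the 53 genes with a RefSeq entry, 11 (20.8%) held the pair: Dnah6, Cfap20dc, Cfap44, Cfap45, Cfap298, Dnah7a, Dnah7b, Dnah7c, Dnah9, Dnai1 and Dnai2. Without Dnah6, whose sequence was used to set the letters, 10 of 52 (19.2%) did, against 2.62% of 27025 genes and 2.27% of 32851 promoters. The 10 include the near-identical copies Dnah7a, Dnah7b and Dnah7c, whose matches may not be separate. The forkhead letters TGTTTAC, searched on both strands, stood in 3 of the 53, none of which held the pair (5.66%; Cfap20, Cfap43 and Dnah17) and in 3.54% of all genes and 3.17% of all promoters. A match is a string of letters and not a measured binding site.

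Few of the other axonemal genes moved in females. Counts were fitted with edgeR's quasi-likelihood test over all 20836 genes, and a gene was called when its Benjamini-Hochberg adjusted p (padj) was under 0.1. Of the 53 tested genes other than Dnah6, 2 fell (3.77%), where 9.74% of all genes tested fell. The 1 that rose (1.89%) compares with 10.4% of all genes, and 20.1% of all genes were called in either direction. The median log2FC of the 53 was −0.01, against 0.00 for all genes tested, with a median SE of 0.24 against 0.15, so these low genes were measured less precisely than the average gene. For 33 of the 53 the 95% interval of the log2FC lay within a 2-fold change. Each of the calls in females was lost without female sham replicate 1 and again without replicate 2. The shares of all genes called in those fits are not given, so the losses are not read as particular to these genes.

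In males more were called, as for genes in general. There 9 of the 53 fell (17.0%), beside 20.1% of all genes tested, and 7 rose (13.2%), beside 21.8%, and 41.9% of all genes were called in either direction. The median log2FC was 0.07 against 0.03 for all genes. Leaving out male sham replicate 1 left 4 that fell and 2 that rose, and leaving out replicate 2 left 5 and 2. Without male axotomy replicate 1, 4 rose. The shares of all genes called in these fits, and in the next, are not given, so the counts show only how calls moved. With male axotomy replicate 2 as the single library of its group, a fit added after seeing the data that takes its spread from the other groups, 4 fell and 3 rose. The 16 genes called in at least 1 sex included 3 called in both, each in the same direction in both: Cfap20dc and Rsph4a fell and Dnai3 rose. 8 of the 16 averaged less than 1 TPM, and 37 of the 53 were called in neither sex.

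**Figure D2:**
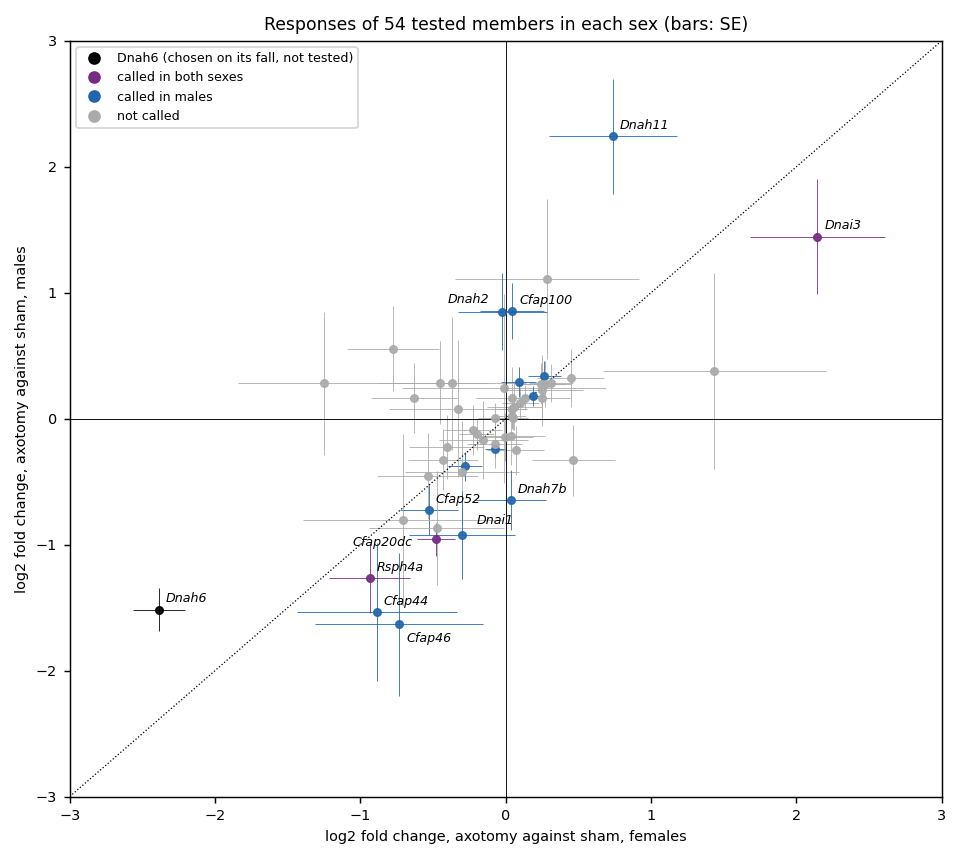
log2FC after axotomy in females (horizontal axis) and males (vertical axis) for the 54 tested genes, with bars for the SE and a dotted line of equal response; the male and female comparisons use separate libraries but share one estimate of spread. Dnah6 lies apart at −2.39 and −1.52, Dnai3 and Dnah11 lie highest, and most genes lie near 0 on both axes.

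Cfap20dc, named for a domain it shares with Cfap20, fell in both sexes. It stood at 11.1 and 10.4 CPM in female shams and at 7.88, 7.67 and 7.83 CPM after axotomy. In males it stood at 10.9 and 12.2 CPM in shams and at 5.20, 7.39 and 6.17 CPM after axotomy. No axotomy library reached the lowest sham in either sex. In females its log2FC was −0.48 (SE 0.13, padj = 0.0374), and in males it was −0.96 (SE 0.13, padj = 0.00098). The call in males was kept in all 19 alternative fits, while that in females was lost without female sham replicate 1 or 2 or female axotomy replicate 2 (largest padj = 0.188).

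Rsph4a, a protein of the radial spoke head, fell in both sexes as well, from a low level. It stood at 0.754 and 0.945 CPM in female shams and at 0.323, 0.580 and 0.469 CPM after axotomy. In males the shams stood at 0.826 and 0.968 CPM and the axotomies at 0.428, 0.348 and 0.420 CPM. The groups did not overlap, and these levels rest on 20 to 61 counts per library. Females had a log2FC of −0.94 (SE 0.28, padj = 0.0506), males one of −1.26 (SE 0.28, padj = 0.0064). The call in males was kept in all 19 alternatives, and that in females was lost without female sham replicate 1 or 2 or female axotomy replicate 1 (largest padj = 0.319).

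Dnai3, an intermediate chain of the inner arm dynein f, rose in both sexes. It stood at 0.146 and 0.156 CPM in female shams, 10 counts each, and at 0.565, 0.724 and 0.755 CPM after axotomy. In males it stood at 0.171 and 0.174 CPM in shams and at 1.02, 0.488 and 0.404 CPM after axotomy, with replicate 1 far above the others. Every axotomy library exceeded every sham. Dnai3 had a log2FC of 2.14 (SE 0.46, padj = 0.0153) in the females, and for males the value was 1.45 (SE 0.46, padj = 0.0329). The female call was lost without either female sham (largest padj = 0.123) and the male call without male sham replicate 1 (padj = 0.3).

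**Figure D3:**
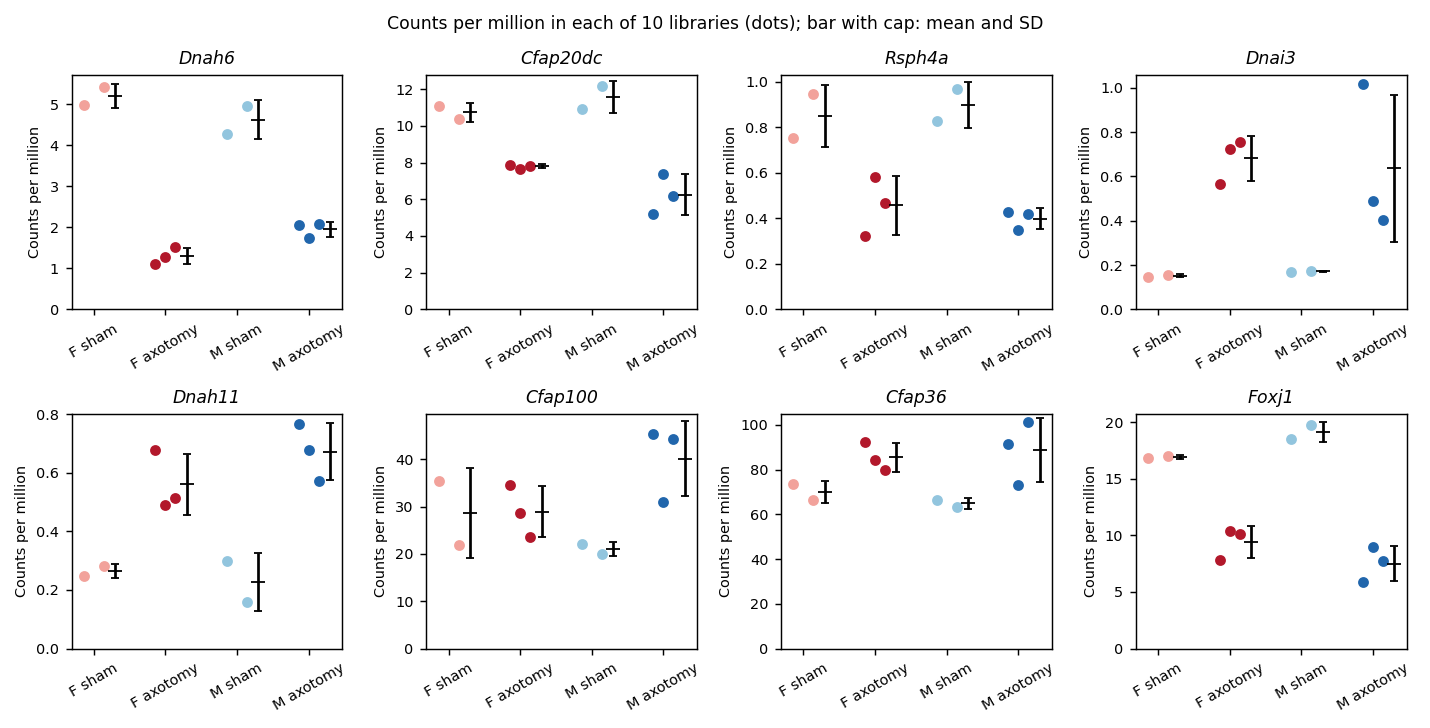
CPM in each of the 10 libraries for 7 axonemal genes and Foxj1, with the mean and SD of each group drawn beside the dots and each axis starting at 0. Dnah6, Cfap20dc, Rsph4a and Foxj1 are lower in every axotomy library than in every sham of the same sex, Dnai3 and Dnah11 are higher, and Cfap100 overlaps in females.

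Among the outer arm heavy chains, 1 of 5 (20%) was called in males and none in females, beside 41.9% and 20.1% of all genes tested. Dnah11 stood at 0.299 and 0.159 CPM in male shams and at 0.766, 0.677 and 0.572 CPM after axotomy, with a log2FC of 2.24 (SE 0.45, padj = 0.00468). In females it stood at 0.248 and 0.281 CPM in shams and 0.678, 0.489 and 0.514 CPM after axotomy, also without overlap, with a log2FC of 0.74 (SE 0.44, padj = 0.3). Without the length correction Dnah11 was called up in both sexes, with a log2FC of 1.08 (padj = 0.0442) in females and of 1.496 (padj = 0.00493) in males. The male call was lost over protein-coding transcripts alone (padj = 0.141). Its reads were divided between a coding transcript (71.3%) and one marked for nonsense-mediated decay (27.4%) in shares that changed from library to library. Dnah5, Dnah8, Dnah9 and Dnah17 were not called in either sex, with log2FC from −0.45 to 0.28 over both sexes.

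Among the 8 inner arm heavy chains other than Dnah6, none was called in females, and in males Dnah2 was called up and Dnah7b down. That is 25% in males, beside 41.9% of all genes tested in males and 20.1% in females. The call of Dnah2 rested on the length correction. Its CPM overlapped, at 1.79 and 2.47 in male shams and 1.62, 2.15 and 1.61 after axotomy, and its log2FC of 0.85 (SE 0.31, padj = 0.054) turned to −0.28 without the length correction. The average length the files give it ran from 4273 to 14536 bases between libraries. A processed transcript of 924 bases was given 1 and 0 counts in male shams and 6, 10 and 4 after axotomy. Its part in the length correction was not tested. In male axotomy replicate 1 the coding reads of Dnah2 went to a transcript of 13569 bases instead of the one of 13704 bases used in the others. Those 2 transcripts are close in length. The call was also lost without either male sham or without male axotomy replicate 3 (largest padj = 0.522). Dnah7b stood at 7.72 and 7.20 CPM in male shams and at 4.60, 5.82 and 5.55 CPM after axotomy, with a log2FC of −0.65 (SE 0.24, padj = 0.0589). The call was lost without male sham replicate 2 or male axotomy replicate 3 (largest padj over the alternatives = 0.536), and in females the log2FC was 0.03 (SE 0.24). Dnah1, Dnah3, Dnah7a, Dnah7c, Dnah10 and Dnah12 were not called. Without the length correction Dnah3 was called up in females (1.90, padj = 0.0326) and in males (1.27, padj = 0.0837), Dnah10 up in males (0.67, padj = 0.0362) and Dnah7c down in males (−0.59, padj = 0.0873). Dnah3 passed the count filter only through axotomy libraries, where it is high, so its calls carry no weight.

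Of the other intermediate chains, Dnai1, a subunit of the outer arm, was called down in males, with a log2FC of −0.92 (SE 0.35, padj = 0.0636). Its CPM overlapped, at 0.441 and 0.523 in male shams and 0.295, 0.455 and 0.454 after axotomy, and over protein-coding transcripts alone the log2FC was 0.05. It was lost in 8 of 19 alternatives, among them the fits without either male sham, male axotomy replicate 1 or replicate 3. Dnai2 and Dnai4 were not called.

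Of 9 tested radial spoke genes, Rsph4a was the 1 that fell, and Rsph3b and Rsph9 rose in males by small amounts. These calls make 11.1% in females and 33.3% in males, beside 20.1% and 41.9% of all genes tested. Rsph3b had a log2FC of 0.18 (SE 0.08, padj = 0.0988) and Rsph9 of 0.29 (SE 0.12, padj = 0.0886), and these calls were kept in 4 and 5 of 19 alternatives and were each lost in 9 of the 10 fits that left out a single library. Rsph1, Rsph3a, Rsph10b, Cfap61, Cfap91 and Cfap206 were not called in either sex, though Rsph1 was called up in males without the length correction (0.35, padj = 0.0995). Rsph9 and Rsph4a, both proteins of the spoke head, thus had log2FC of opposite sign in males.

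Of the inner arm tethers and adaptors, Cfap100 rose in males. Its male shams averaged 21.1 ± 1.49 CPM (SD, n = 2), and its axotomy libraries stood at 45.3, 30.9 and 44.2 CPM, with a log2FC of 0.85 (SE 0.22, padj = 0.0157), a call lost without male sham replicate 2. The 2 male libraries highest in Cfap100, replicates 1 and 3, were also the highest in Schwann cell markers, at 7306 and 6416 CPM against 5251 CPM in replicate 2, and in erythrocyte and fibroblast markers, and without both the log2FC was 0.45 (padj = 0.332). In females the shams alone stood at 35.4 and 21.9 CPM and spanned the axotomies at 34.5, 28.7 and 23.6 CPM. Schwann cell markers stood in the same order within each female group, at 6015 and 4269 CPM in shams and at 5322, 4136 and 3555 CPM after axotomy, and their part in the Cfap100 values was not tested. Cfap44 fell in males, with 1.24 and 1.03 CPM in shams and 0.766, 0.777 and 0.672 CPM after axotomy. Its log2FC of −1.54 (SE 0.55, padj = 0.0538) shrank to −0.66 without the length correction, and 32.9% of its counts lay on a retained-intron transcript that drew 0 counts in male axotomy replicates 1 and 3 and 37.1 in replicate 2. The call was lost without male sham replicate 1 or male axotomy replicate 1 or 3 (largest padj over the alternatives = 0.731). In females Cfap44 stood at 1.155 and 1.154 CPM in shams and at 0.597, 0.814 and 0.820 CPM after axotomy, without overlap. Its female log2FC was −0.89 (SE 0.55, padj = 0.318). Without the length correction it was called down in females (−0.64, padj = 0.0581).

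**Figure D4:**
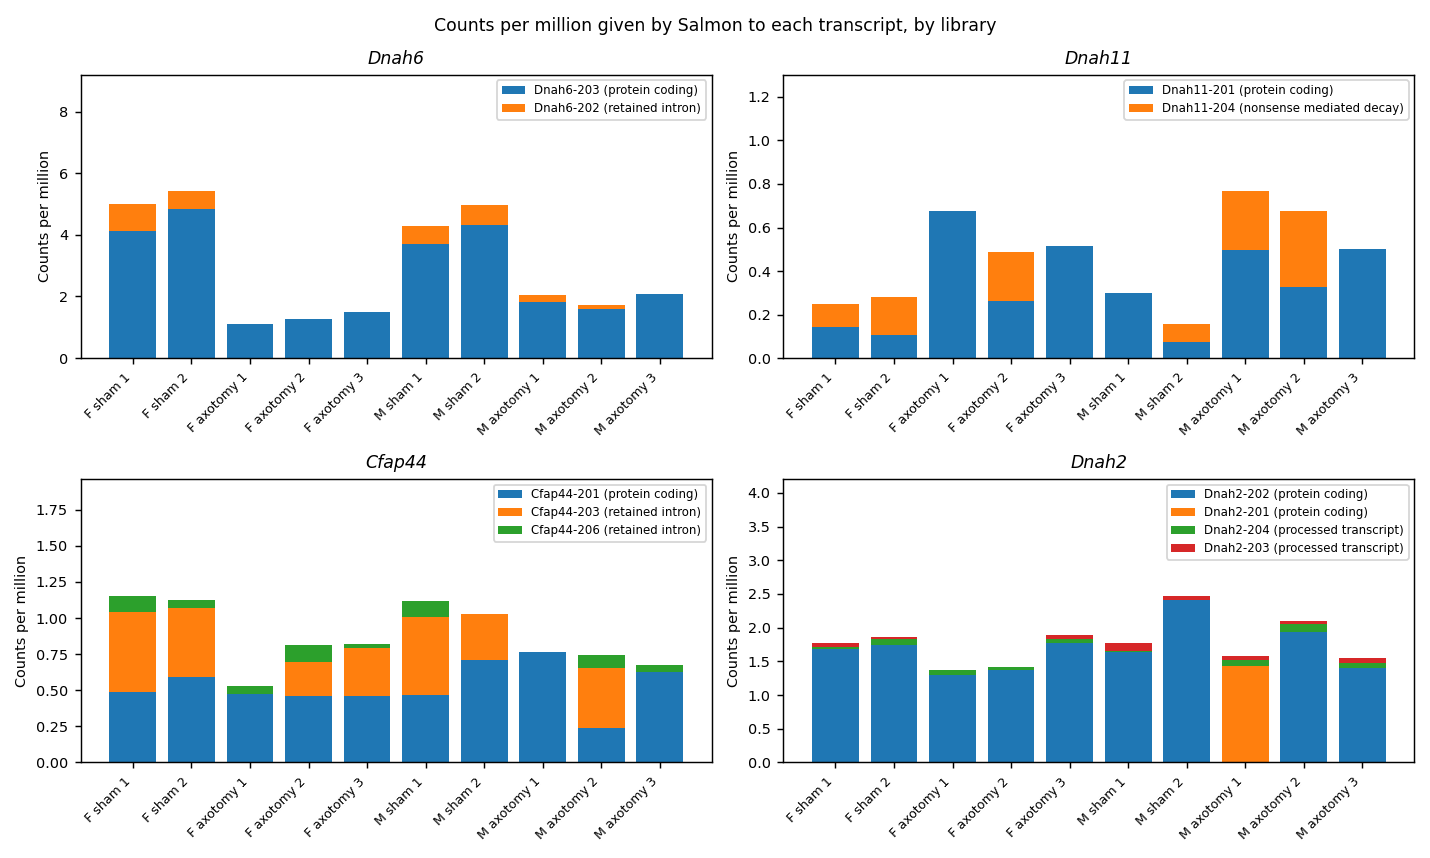
CPM (vertical axis) assigned to the main transcripts of Dnah6, Dnah11, Cfap44 and Dnah2 in each library (horizontal axis), stacked by transcript. The total of Dnah6 drops after axotomy with both of its transcripts, while the totals of Dnah2 overlap between sham and axotomy and its reads move to another transcript in male axotomy replicate 1.

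Cfap46, of the central apparatus, and Cfap52, a protein inside the doublet, fell in males. Cfap46 had a log2FC of −1.63 (SE 0.57, padj = 0.0476), or −1.02 without the length correction, at 0.825 and 0.698 CPM in shams and 0.265, 0.455 and 0.437 CPM after axotomy. Its call was lost without male sham replicate 1 or male axotomy replicate 1 or 2 (largest padj over the alternatives = 0.391). In females Cfap46 stood at 0.761 and 0.546 CPM in shams and at 0.210, 0.326 and 0.530 CPM after axotomy, without overlap. It was not called there, with a log2FC of −0.73 (SE 0.58, padj = 0.439). Cfap52 stood at 1.38 and 1.60 CPM in male shams and at 0.884, 1.20 and 0.824 CPM after axotomy, with a log2FC of −0.73 (SE 0.20, padj = 0.017), a call lost without male sham replicate 2. In females it stood at 1.51 and 1.37 CPM in shams and at 0.969, 1.03 and 1.01 CPM after axotomy, without overlap, at a log2FC of −0.53 (SE 0.20, padj = 0.107). None of the other 5 central apparatus genes tested, of the other 4 genes of microtubule inner proteins, of Drc1 and Drc3, of the assembly factors Cfap298 and Cfap300 and of Dnah14 was called in either sex. Without the length correction Dnah14 was called up in females (0.87, padj = 0.0647). Both assembly factors were measured closely, with log2FC of 0.02 to 0.07 over both sexes and an SE near 0.10.

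Among the abundant genes with no part assigned here, Cfap36 rose in males, from 66.6 and 63.3 CPM to 91.6, 73.1 and 101.2 CPM. The male log2FC was 0.34 (SE 0.11, padj = 0.0378), a call lost without either male sham or male axotomy replicate 1. The female log2FC was 0.26 (SE 0.11, padj = 0.146), where 73.4 and 66.4 CPM in shams went to 92.2, 84.5 and 79.6 CPM. With male axotomy replicate 2 as the single library the male log2FC was 0.09 (padj = 0.58). Cfap410 fell slightly in males, with a log2FC of −0.24 (SE 0.07, padj = 0.0227), and Cfap97 had one of −0.38 (SE 0.11, padj = 0.0264). The first call was lost without either male sham and the second without male sham replicate 1. In females the log2FC of Cfap97 was −0.28 (padj = 0.131), and without the length correction it was called down there (−0.28, padj = 0.0913).

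**Figure D5:**
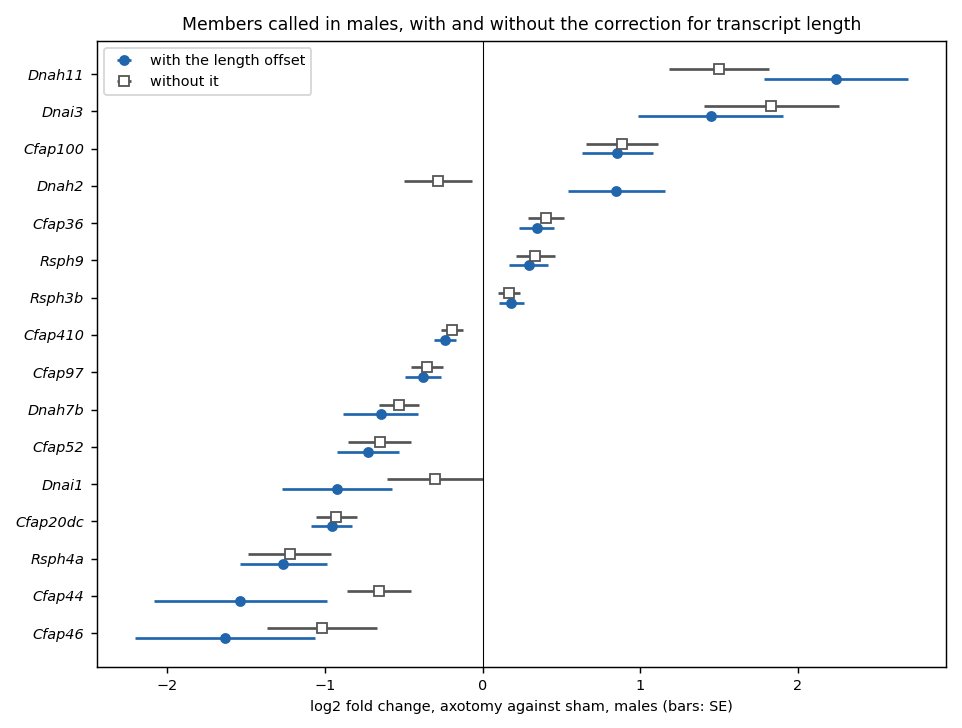
log2FC in males, with SE bars, of the 16 genes called there, fitted with the length correction (filled circles) and without it (open squares). Dnah2 changes sign, from 0.85 to −0.28, Dnai1, Cfap44 and Cfap46 shrink towards 0, and Cfap20dc and Rsph4a stay in place.

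No axonemal gene was called for a different response in males and females. By edgeR's quasi-likelihood test 0 of the 53 had a padj under 0.1 for the interaction, where 0.0192% of all genes were called, and DESeq2 called 0. By the same edgeR test 4 of the 53 had an unadjusted p under 0.05 for it, beside 2368 of all 20836 genes tested. The male response minus the female response was −0.48 (SE 0.19, padj = 0.377) for Cfap20dc and 0.81 (SE 0.31, padj = 0.371) for Cfap100. For Dnah11 its 95% interval ran from 0.12 to 2.89 (padj = 0.403). Without male axotomy replicate 2, Cfap20dc (padj = 0.0536), Cfap100 (padj = 0.0848) and Cfap299 (padj = 0.0697) were called. Many other genes were called in that fit too, since Cfap100 was called at an unadjusted p of 0.00707. The share of all genes called in it is not given, so these calls are not read as a result about axonemal genes. Between sham males and females 0 of the 53 were called, beside 0.0432% of all genes. There 2 of the 53 had an unadjusted p under 0.05, beside 670 of the 20836 genes. After axotomy 0 were called beside 1.52%, and DESeq2 called 0 in both comparisons. An unadjusted p under 0.05 was reached by 8 of the 53 after axotomy, beside 3201 of the 20836 genes. Without male axotomy replicate 2, 5 were called between the sexes after axotomy, again with no share of all genes to set beside them.

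The transcription factors that switch on motile cilia were listed with the family. Foxj1 fell in both sexes, from 16.8 and 17.0 CPM in female shams to 7.80, 10.4 and 10.1 CPM, and from 18.5 and 19.8 CPM in male shams to 5.87, 8.95 and 7.72 CPM. Every axotomy library was below every sham. Its log2FC in females was −0.84 (SE 0.19, padj = 0.0181), and that in males −1.35 (SE 0.19, padj = 0.0011). The calls were kept in 18 and 19 of 19 alternatives, and lost in females without female sham replicate 2 (padj = 0.154). Foxj1 averaged 8.18 TPM, above every dynein heavy chain. Rfx2 and Rfx3, at 0.788 and 2.61 TPM, were not called, with log2FC of 0.11 and 0.04 in females and 0.23 and 0.10 in males and SEs of 0.12 to 0.19. Of 8 tested factors of 11 listed, 1 fell and none rose in females, and 2 fell and 1 rose in males, or 12.5% and 37.5% called beside 20.1% and 41.9% of all genes tested, with medians of 0.01 and 0.04. The other 2 called in males were low, Mcidas at no more than 0.172 CPM in any library and Myb at no more than 0.740 CPM. Mcidas passed the filter only through sham libraries, so its place among those that fell carries no weight.

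Other axonemal and dynein assembly genes, 47 tested of 56 listed, were listed as well. In females 3 fell and 2 rose, and in males 5 fell and 2 rose, or 10.6% and 14.9% called beside 20.1% and 41.9% of all genes, with median log2FC of −0.07 and −0.15. Spef1, which bundles central pair microtubules, rose by 0.58 (SE 0.18, padj = 0.0538) in the females and by 0.61 (SE 0.18, padj = 0.0231) in the males. Ccdc40 rose (0.37, SE 0.13) while its partner Ccdc39 fell (−0.36, SE 0.13) in females, with padj of 0.0886 and 0.0856. Dnal1, an outer arm light chain, fell by 0.29 in females (padj = 0.0645). In males Zmynd10, an assembly factor, and Lrrc34 fell (padj = 0.0349 and 0.0538) and the assembly factor Dnaaf3 rose by 0.50 (SE 0.19, padj = 0.0723). Zmynd10 was at no more than 0.199 CPM in any library. It would not have passed the filter without the male shams, where it is high, so its place among those that fell carries no weight.

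Genes of the primary cilium and of intraflagellar transport, the movement of cargo along any cilium, were all tested. Of the 51, 6 fell and 2 rose in females (15.7% called) and 14 fell and 9 rose in males (45.1%), beside 20.1% and 41.9% of all genes tested, with median log2FC of −0.11 and −0.09. Bbs1, a subunit of the BBSome that carries membrane proteins, fell in both sexes, with log2FC of −0.45 (SE 0.09, padj = 0.013) for females and −0.59 (SE 0.09, padj = 0.00169) for males. Ift22 rose by 0.36 (SE 0.08, padj = 0.0133) for females and 0.24 (SE 0.08, padj = 0.0343) for males. In females Ptch1, the hedgehog receptor, fell (−0.37, SE 0.12, padj = 0.059) and Kif3b rose (0.23, SE 0.08, padj = 0.074). In males Gli1 and Smo of the hedgehog pathway rose by 1.09 (SE 0.18, padj = 0.00194) and 0.46 (SE 0.11, padj = 0.00958), and Wdr19 had a log2FC of −0.42 (SE 0.10, padj = 0.00857).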

How the data were processed

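Per the labels and the methods, reads were trimmed by the authors (Trimmomatic 0.39), and Salmon 1.3.0 assigned them to Gencode M27 transcripts, correcting sequence and GC bias. With Salmon's strand setting not given in the sources used here, reads of overlapping antisense genes may be included. The deposited files hold, per transcript, estimated counts and TPM made by the authors, with the effective length. Estimated counts were summed per gene and rounded, and effective lengths were averaged with TPM as weights.

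One edgeR 4.0.16 fit (R 4.3.3) of 4 group means over 10 libraries was made, with TMM scaling, a length offset, filterByExpr at a minimum count of 10 and a robust quasi-likelihood F test. P-values were adjusted by Benjamini-Hochberg over 20836 genes, and padj under 0.1 was called, the threshold of the study. The common biological coefficient of variation was 0.129. DESeq2 1.42.0 was an alternative. The batch correction of the study was not repeated. The labels do not say whether libraries differ in more than the pooled mice, so p-values measure the spread between these libraries. No pair of replicates agreed within sampling noise. The fit was tested on simulated data.

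Members, parts of the axoneme and companion lists were chosen with earlier results of these data known. Named genes were Dnah6, members called in females or males, the 10 highest by TPM, Foxj1, Rfx2 and Rfx3, and for each companion list the 2 smallest p-values in each direction. Genes listed as not called, the interaction examples and those named for their promoter were named after their values were seen. Coordinates in M27 (GRCm39) were not used here.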

Additional observations from a re-analysis of the deposited data

How the results depend on the processing

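The shares of all genes called in the alternative fits, here and above, are not given. The counts show how calls move between fits, not whether these genes respond more or less than others. Without the length correction, of the 53 genes other than Dnah6, 4 fell and 4 rose in females. Dnah3, whose calls carry no weight, is among those that rose. In females 6 fell and 2 rose over protein-coding transcripts alone, and 6 fell and 4 rose with each sex on its own libraries. At padj under 0.05, 1 fell in females and 4 rose in males. With the replicate block 4 fell and 2 rose in females and 8 fell and 6 rose in males, and none differed between the sexes. Over the 13 same-numbered pairs of libraries the residuals correlated at −0.238 to 0.248, with 3 pairs over 0.1. The residuals of the 2 shams of a sex mirror each other. These correlations therefore cannot decide whether same-numbered libraries share more than a number. With male axotomy replicate 2 as the single library of its group, 5 fell and 4 rose in females and 4 fell and 3 rose in males. With a stricter count filter (30 counts in 2 libraries) 1 gene differed between the sexes after axotomy. Leaving out each library in turn gave 0 to 4 falling and 0 to 4 rising in females, 4 to 10 falling and 2 to 7 rising in males, 0 to 3 with a different response and 0 to 5 differing between the sexes after axotomy. In females 1 fell without female axotomy replicate 1 or 2, 4 fell without male axotomy replicate 2 or 3, and 2 and 4 rose without those 2 libraries. Dnah2 in males turned to −0.28 without the length correction and Dnai1 in males to 0.047 over protein-coding transcripts. Over protein-coding transcripts the log2 fold change of Dnah6 in females was −1.82 and the log2 fold change of Dnah6 in males was −1.21. With 2 shams a sex, 1 sham library can decide a call, and most of these genes rest on few counts, so that a missed call does not show that a gene did not change.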
